A study of Rattus norvegicus with 6 samples.

Results

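Genes of cell junctions and of apical-basal polarity were compared between a rat bile duct cancer cell strain and a fibroblastic strain from the same kind of tumour. Of 43 listed genes, 38 were read by 59 probe sets to which the platform annotation gives 1 gene symbol, out of 14217 genes and 31042 probe sets measured in all. The 38 were 18 tight junction, 9 desmosome, 3 gap junction and 8 polarity genes. Cldn9, Cldn15, Cldn23, Marveld2 and Marveld3 had no such probe set and were not analysed here. A gene with several probe sets was represented by the one with the highest mean over all arrays, and the others are described beside it.

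RNA was measured on 6 Affymetrix arrays. BDEsp-TDECC, here TDECC (n = 3), is a clonal cholangiocarcinoma cell strain, and BDEsp-TDESM, here TDESM (n = 3), is a clonal cancer-associated fibroblastic strain that overexpresses Acta2, the actin of smooth muscle and myofibroblasts. Both have the Fischer 344 background and came from tumours grown in young adult male rats after BDEsp cells, spontaneously transformed rat cholangiocytes, were placed in the bile duct. The labels give all 6 samples the same text on growth, an organotypic 3-D co-culture of cholangiocarcinoma cells in dilute rat collagen type I gel, and name the TGFb inhibitors SB 431542 and LY2157299 for all alike, so neither could be compared. Each group is 1 clone. The labels do not state whether the replicates were grown separately, so the p-values reflect array-to-array spread alone, possibly of technical origin.

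Tight junctions seal the space between neighbouring epithelial cells: claudins and occludin cross the membrane and form the barrier, and zonula occludens proteins and cingulin tie them to actin. Desmosomes join keratin filaments of adjacent cells through the desmosomal cadherins (desmogleins and desmocollins), plakoglobin, plakophilins and desmoplakin. Gap junctions are channels of connexins that pass small molecules between cells. The Par, Crumbs and Scribble complexes divide the membrane of an epithelial cell into an apical and a basolateral part. In cholangiocytes these structures separate bile in the duct lumen from the tissue.

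The 6 arrays had median log2 values between 5.8 and 5.86. Arrays correlated at 0.968 to 0.975 across genes within TDECC and at 0.995 to 0.998 within TDESM, against 0.787 to 0.823 between strains. All 6 epithelial markers were higher in TDECC (20.3% of all genes). Among them Krt19, a keratin of bile ducts, averaged 14.33 in TDECC and 3.58 in TDESM, and Cdh1, E-cadherin, averaged 12.77 in TDECC and 3.48 in TDESM. Of 8 fibroblast markers 7 were lower in TDECC (21.8% of all genes). The other one, Cdh2, N-cadherin, averaged 6.71 in TDECC and 6.53 in TDESM and did not pass the test. The array values carry no detection calls, so whether a low value lies above background is not known and no linear folds are given. Of other cell types, 14 leukocyte genes had a median level of 4.32 to 4.53 on the TDECC arrays and of 4.45 to 4.62 on the TDESM arrays. Ptprc, the common leukocyte antigen, averaged 3.68 in TDECC and 3.80 in TDESM. Only Gzmb of the 14 was called (42.1% of all genes). It was lower in TDECC, averaging 4.86 there and 7.77 in TDESM (difference -2.91, limma adjusted p = 4.62e-05). Of 13 hepatocyte genes, Serpina1 was called higher in TDECC (difference 1.53), Apoc3 was called lower (-1.36) and 11 were not called. Levels are log2 values of single probe sets throughout, and since probe sets bind with different strength they are compared between strains and not between genes. In such bulk RNA, fewer cells of a type and less RNA per cell cannot be told apart.

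Most junction and polarity genes were higher in the cancer strain. With limma, two-sided and Benjamini-Hochberg adjusted over all 31042 probe sets, 28 of the 38 genes (73.7%) were higher in TDECC at an adjusted p under 0.05, against a background of 20.3% of all genes (42.1% were called in either direction). Only Jam3 among the 38 was lower in TDECC, where 21.8% of all genes were lower, and 9 genes did not pass. A log2 difference of at least 2 in favour of TDECC was reached by 21 genes, against 5.37% of all genes, and one of at least 4 by 15 genes, against 1.76% of all genes. In the other direction Jam3 alone passed either size, against 6.2% and 2.38% of all genes. At least 1 was reached by 25 genes higher in TDECC (12% of all genes) and by Jam3 lower in TDECC (13.4%). The median difference of the 38 genes was 2.91, and that of all genes was -0.0033. By groups, 12 of 18 tight junction, 8 of 9 desmosome, 1 of 3 gap junction and 7 of 8 polarity genes were higher in TDECC. For 28 genes every TDECC array read above every TDESM array (26.4% of all genes), and for 3 every TDECC array read below them (27.3% of all genes). An exact permutation test of a single gene cannot give a two-sided p below 0.1 with 3 arrays against 3.

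**Figure D1:**
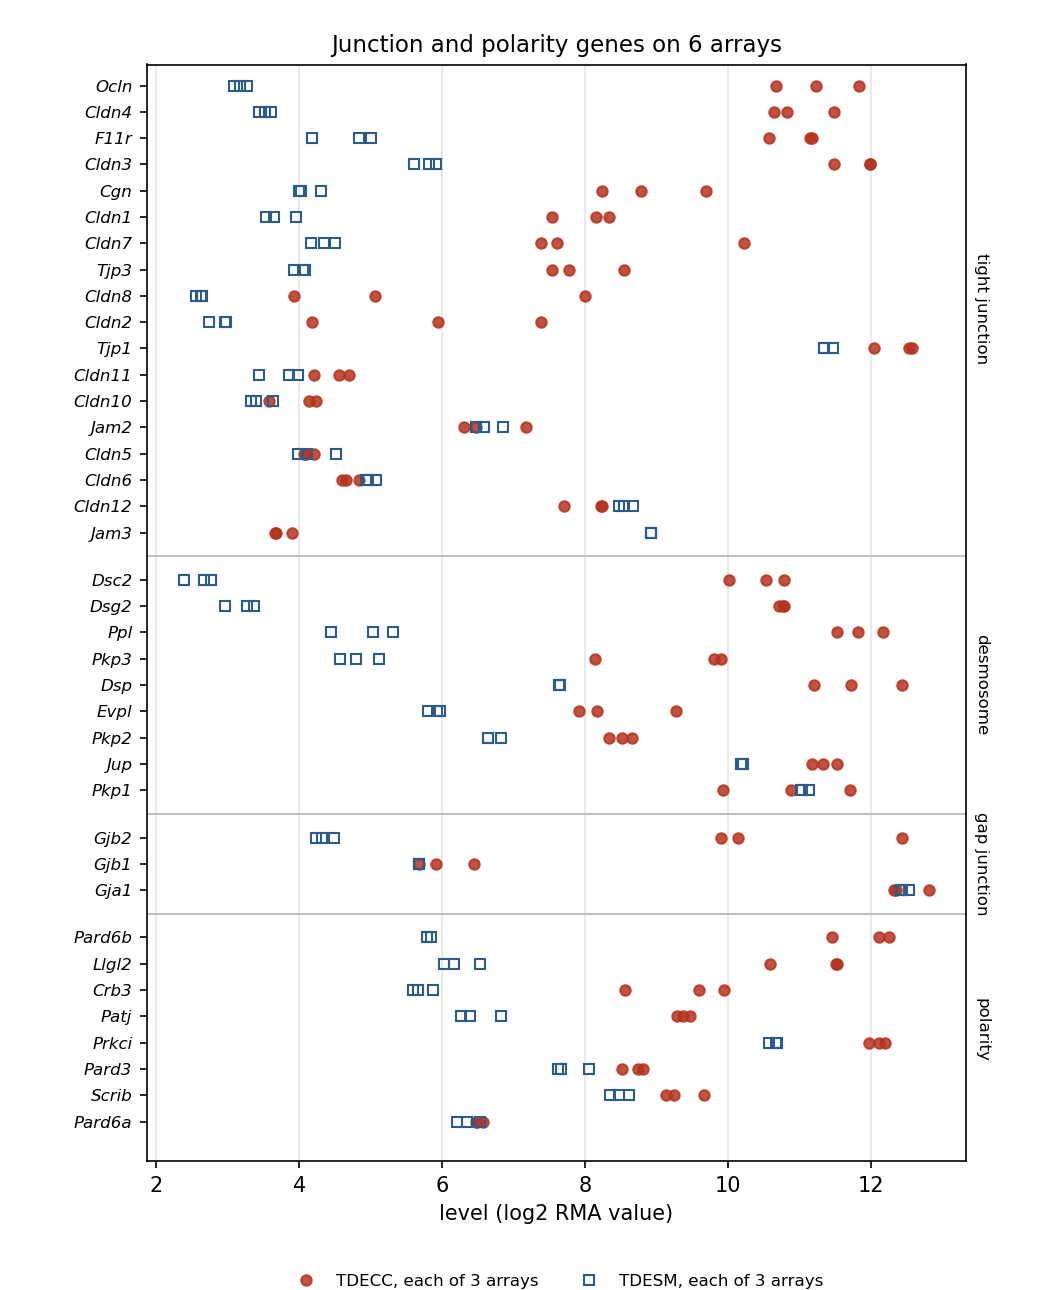
Log2 level of each of the 38 genes (rows, by group and by difference) on the 3 TDECC arrays (filled circles) and the 3 TDESM arrays (open squares). The groups of points stand apart for most rows, Jam3 is the one called gene with the TDECC points on the low side, and the TDECC points are the more scattered.

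These differences rest on arrays scaled to a common distribution. Centred instead on the added poly-A control transcripts, the median of all genes moved to 1.27. Of all genes 86.5% were called under this centring, and 92.5% of those calls were higher in TDECC. A call of higher there thus sets a gene little apart from the rest. All 28 genes higher in TDECC were still called higher there, and Jam3 was still called lower, at -3.90. The 9 genes that did not pass were also called higher in TDECC under it.

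The proximal promoters of the genes with the largest differences are shown because many members moved together. RefSeq on build GRCr8 gave 32 promoters for 31 of the listed genes, each from 250 bases before to 50 bases after the gene's start. Shown are the largest difference of each group that had a promoter in that table, and Cldn3, the claudin with the largest difference among those in the table, which does not hold Cldn4. They are Ocln (chr2:33441149-33441448, minus strand), Cldn3 (chr12:27346498-27346797, minus strand), Dsc2 (chr18:11757417-11757716, minus strand), Gjb2 (chr15:35381904-35382203, minus strand) and Crb3 (chr9:1987504-1987803, plus strand). Capitals mark the E-box CAGGTG or its reverse complement CACCTG, the letters bound by Snail and Zeb family repressors of epithelial genes.
Ocln: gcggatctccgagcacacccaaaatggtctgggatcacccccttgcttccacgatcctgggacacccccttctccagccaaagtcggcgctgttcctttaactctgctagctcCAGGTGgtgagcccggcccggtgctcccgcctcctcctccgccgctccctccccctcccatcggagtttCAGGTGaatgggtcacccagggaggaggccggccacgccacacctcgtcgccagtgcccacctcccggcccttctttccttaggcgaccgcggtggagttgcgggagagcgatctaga
Cldn3: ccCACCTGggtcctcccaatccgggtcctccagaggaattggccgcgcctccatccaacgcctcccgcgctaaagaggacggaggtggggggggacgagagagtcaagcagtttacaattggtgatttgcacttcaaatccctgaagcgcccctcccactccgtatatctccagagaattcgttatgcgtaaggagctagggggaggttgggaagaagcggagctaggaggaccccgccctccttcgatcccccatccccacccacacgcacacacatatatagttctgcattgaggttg
Dsc2: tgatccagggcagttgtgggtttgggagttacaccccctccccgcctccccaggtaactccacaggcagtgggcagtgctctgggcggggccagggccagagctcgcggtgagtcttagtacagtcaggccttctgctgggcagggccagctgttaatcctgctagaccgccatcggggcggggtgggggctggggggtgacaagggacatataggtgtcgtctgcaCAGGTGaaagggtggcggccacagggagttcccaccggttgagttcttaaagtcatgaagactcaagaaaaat
Gjb2: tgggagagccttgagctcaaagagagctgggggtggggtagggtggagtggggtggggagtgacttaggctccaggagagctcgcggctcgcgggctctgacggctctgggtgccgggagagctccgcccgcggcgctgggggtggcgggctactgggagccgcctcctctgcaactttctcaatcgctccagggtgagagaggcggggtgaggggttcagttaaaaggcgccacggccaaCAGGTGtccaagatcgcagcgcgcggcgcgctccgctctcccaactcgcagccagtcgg
Crb3: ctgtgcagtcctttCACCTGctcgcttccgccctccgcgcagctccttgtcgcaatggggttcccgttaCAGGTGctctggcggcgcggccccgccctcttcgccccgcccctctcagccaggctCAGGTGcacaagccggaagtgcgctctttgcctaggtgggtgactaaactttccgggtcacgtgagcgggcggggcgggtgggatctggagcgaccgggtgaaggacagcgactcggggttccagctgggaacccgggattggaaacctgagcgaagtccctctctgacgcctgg
Each of these 5 promoters held at least 1 such E-box. In Ocln the first bases of its E-boxes lay 137 and 68 bases before the start, in Dsc2 23 bases and in Gjb2 9 bases before it. Crb3 held 3, at 236, 181 and 125 bases before the start, and Cldn3 held 1 at its far end, 248 bases before the start. Of the 15 promoters of members higher in TDECC by at least 2, 12 held an E-box (80.0%). The share was 35.8% among 679 promoters of all genes higher in TDECC by that much, 23.1% among 2689 promoters of all genes called higher, and 18.9% among 13242 promoters of all genes on the array. Cldn1, Cldn8 and Cgn were the members with such a difference and no E-box in this window. The other motif searched was the grainyhead-like AACCNGTT or AACNGGTT. It stood in the promoters of Cgn and Tjp1 alone, which is 6.25% of the 32 promoters, against 1.70% on the array. Among members higher by at least 2 it stood in 1 of 15 promoters (6.67%), against 2.80% of the 679 promoters of all such genes. Both motifs were read on both strands and neither contains the other. A match of letters is a description of the window, with no test made.

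Among the claudins, the barrier-forming Cldn3 and Cldn4 were higher in TDECC. Cldn3 read 11.49, 11.99 and 11.99 on the TDECC arrays, against 5.81, 5.92 and 5.61 on the TDESM arrays, a difference of 6.04 (SE 0.18, limma adjusted p = 7.48e-07). Cldn4 read 10.83, 10.65 and 11.49 in TDECC, against 3.52, 3.43 and 3.61 in TDESM, a difference of 7.47 (SE 0.22, limma adjusted p = 8.02e-07). The strains did not overlap for either gene. In the RefSeq order of protein-coding genes, Cldn3 and Cldn4 are direct neighbours, with 0 genes between them.

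Cldn1, a claudin of many epithelia, read 8.15, 8.34 and 7.54 in TDECC, against 3.54, 3.96 and 3.64 in TDESM, and its 3 probe sets gave differences from 3.70 to 4.31, all past the threshold. Its direct neighbour Cldn16, a claudin of the kidney tubule, was called lower in TDECC (difference -0.54, limma adjusted p = 0.0290). Cldn16 averaged 3.87 in TDECC and 4.41 in TDESM, both below the array medians of 5.8 to 5.86. No refit of this call is given. Cldn7, another epithelial claudin, read 7.39, 10.22 and 7.60 in TDECC, against 4.35, 4.50 and 4.17 in TDESM, a difference of 4.06 (SE 0.70, limma adjusted p = 0.00363). TDECC replicate 2 stood far above the other TDECC arrays for this gene, and no array of one strain reached the other strain.

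Cldn2 and Cldn8 varied most within TDECC. Cldn2, which forms pores for cations and water, read 4.18, 7.39 and 5.94 in TDECC, against 2.74, 2.96 and 2.98 in TDESM (difference 2.94, SE 0.72, limma adjusted p = 0.0162). Cldn8 read 3.92, 5.06 and 8.0 in TDECC, against 2.63, 2.64 and 2.55 in TDESM (difference 3.05, SE 0.93, limma adjusted p = 0.0391). All TDECC arrays still read above all TDESM arrays for both genes. The call of Cldn2 was lost without any 1 TDESM array (limma adjusted p up to 0.0596). That of Cldn8 was lost without TDECC replicate 2 (limma adjusted p = 0.0605) or without any 1 TDESM array (up to 0.118), and its difference was 1.88 without TDECC replicate 3.

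Of the remaining claudins, Cldn11 alone passed the test. Cldn11, a claudin of myelin and of the testis, averaged 4.48 in TDECC and 3.75 in TDESM by one probe set (difference 0.73, limma adjusted p = 0.0240), while its other probe set gave -0.06. With the mean of both probe sets the difference was 0.34. This call was lost without TDECC replicate 1 or 2 or TDESM replicate 1 or 3 (limma adjusted p up to 0.0748), and when arrays were centred on housekeeping genes (0.0787). Cldn5, the endothelial claudin, averaged 4.12 in TDECC and 4.2 in TDESM, Cldn6 averaged 4.69 in TDECC and 4.99 in TDESM, and Cldn10 averaged 3.98 in TDECC and 3.45 in TDESM, none past the threshold. Cldn12 read 8.22, 8.24 and 7.71 in TDECC against 8.48, 8.54 and 8.67 in TDESM. Its difference was -0.51 (SE 0.17, limma adjusted p = 0.0557), so that it missed the threshold although the strains did not overlap.

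Occludin and the 3 tight junction plaque genes were higher in TDECC. Ocln read 10.67, 11.23 and 11.84 in TDECC, against 3.09, 3.17 and 3.27 in TDESM, a difference of 8.07 (SE 0.28, limma adjusted p = 1.49e-06). Its second probe set gave 5.13, also past the threshold, so the size depends on the probe set while the direction does not.

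Cgn, cingulin, read 8.78, 9.69 and 8.24 in TDECC, against 4.03, 4.30 and 4.0 in TDESM (difference 4.79, SE 0.34). Tjp3, a zonula occludens scaffold of epithelia, read 7.54, 8.55 and 7.77 in TDECC, against 4.08, 4.05 and 3.93 in TDESM (difference 3.93, SE 0.26). Neither gene overlapped between strains. Tjp1, the widely expressed zonula occludens scaffold, read 12.57, 12.54 and 12.05 in TDECC against 11.34, 11.47 and 11.35 in TDESM (difference 1.0, SE 0.17, limma adjusted p = 0.00295). A dim second probe set of Tjp1 gave 0.09, and with the mean of both the call was lost (0.55, limma adjusted p = 0.0592).

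The junctional adhesion molecules, immunoglobulin-type proteins of cell contacts, split by member. F11r, also called JAM-A, read 10.58, 11.15 and 11.18 in TDECC, against 4.18, 4.84 and 5.00 in TDESM, a difference of 6.30 (SE 0.26, limma adjusted p = 3.42e-06). Jam3, also called JAM-C and known from endothelium and mesenchymal cells, read 3.66, 3.90 and 3.68 in TDECC, against 8.92 on each TDESM array, a difference of -5.17 (SE 0.12, limma adjusted p = 2.70e-07). The strains did not overlap for either gene, and the directions were opposite. Jam2, also called JAM-B, read 6.30, 6.48 and 7.17 in TDECC and 6.58, 6.85 and 6.47 in TDESM, overlapping, with a difference of 0.02. Of its 4 other probe sets, 1 was called lower in TDECC, at -0.88 (limma adjusted p = 0.00303), and 3 were not called. Of 12 endothelial genes measured, 1 was higher in TDECC (20.3% of all genes), 3 were lower (21.8% of all genes) and 8 were not called. The list medians were 4.58 to 4.80 on the TDECC arrays and 4.83 to 5.01 on the TDESM arrays. Kdr, an endothelial receptor, averaged 4.19 in TDECC and 4.23 in TDESM, and Pecam1, an endothelial adhesion molecule and the endothelial gene called higher, averaged 3.80 in TDECC and 3.43 in TDESM. The 3 called lower were Flt1, Egfl7 and Erg, a count near the share of all genes. Flt1, a receptor for vascular endothelial growth factor, averaged 5.62 in TDECC and 7.47 in TDESM, Egfl7 averaged 7.03 in TDECC and 8.47 in TDESM, and Erg averaged 4.71 in TDECC and 5.47 in TDESM. The part of such cells in these results was not tested.

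**Figure D2:**
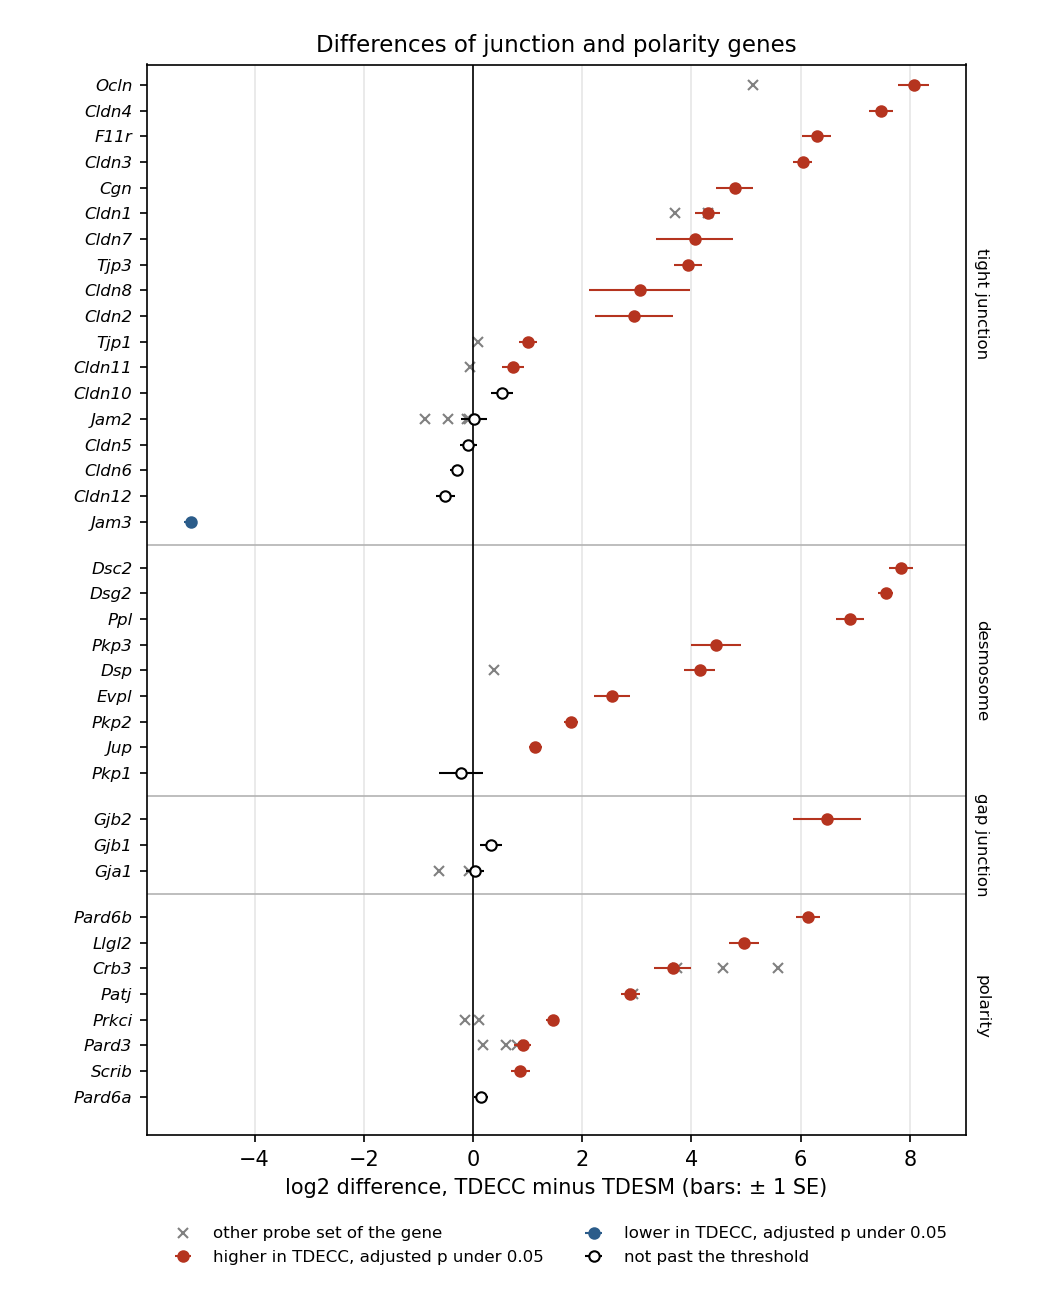
Log2 difference, TDECC minus TDESM, of each of the 38 genes by the probe set that stands for it (circles, bars ± 1 SE, colour by call) and by its other probe sets (crosses). Ocln lies farthest right at 8.07, Jam3 is the one called gene left of 0 at -5.17, and crosses near 0 belong to dim second probe sets such as that of Tjp1.

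Of the 9 listed desmosome genes, all but Pkp1 were higher in the cancer strain. Of the desmosomal cadherins, Dsg2, desmoglein, read 10.71, 10.78 and 10.77 in TDECC, against 3.27, 3.36 and 2.96 in TDESM, a difference of 7.56 (SE 0.14, limma adjusted p = 1.57e-07). Dsc2, desmocollin, read 10.53, 10.78 and 10.01 in TDECC, against 2.66, 2.39 and 2.76 in TDESM, a difference of 7.84 (SE 0.22, limma adjusted p = 6.01e-07). The strains did not overlap for either gene. Of the related cadherins in the same gene cluster, only Dsc1 and Dsg1, known from the epidermis, were measured, and neither passed the test. Dsc1, a direct neighbour of Dsc2, averaged 4.57 in TDECC and 4.66 in TDESM, and Dsg1 averaged 4.09 in TDECC and 4.28 in TDESM. Dsc3, Dsg3 and Dsg4 had no probe set with 1 gene symbol and were not analysed.

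Of the desmosomal plaque, Dsp, desmoplakin, which binds keratin filaments, read 11.21, 12.44 and 11.72 in TDECC, against 7.63, 7.65 and 7.64 in TDESM (difference 4.15, SE 0.29, limma adjusted p = 4.55e-05). A second, dimmer probe set of Dsp gave 0.38 and was not called, and with the mean of both the difference was 2.27. Pkp3, a plakophilin of epithelial desmosomes, read 9.80, 9.90 and 8.14 in TDECC, against 4.79, 5.12 and 4.57 in TDESM (difference 4.45, SE 0.46, limma adjusted p = 3.26e-04). The spread of Pkp3 came from TDECC replicate 3, which still stood well above TDESM.

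Both Jup and Pkp2 were also higher in TDECC. Jup, plakoglobin, which is shared with adherens junctions, averaged 11.34 ± 0.17 in TDECC and 10.2 ± 0.02 in TDESM (SD, n = 3 each), a difference of 1.14 (SE 0.12, limma adjusted p = 4.15e-04). Pkp2, a plakophilin also present in heart muscle, averaged 8.50 ± 0.16 in TDECC and 6.70 ± 0.11 in TDESM (SD, n = 3 each), a difference of 1.8 (SE 0.13, limma adjusted p = 5.78e-05). Pkp1, a plakophilin best known from stratified epithelia, read 11.71, 10.88 and 9.93 in TDECC and 11.03, 11.14 and 11.02 in TDESM. Its TDECC values lay on both sides of the narrow TDESM range, and its difference of -0.22 (SE 0.40, limma adjusted p = 0.722) turned to 0.23 without TDECC replicate 3.

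The plakins Ppl and Evpl, periplakin and envoplakin, link desmosomes and the cell cortex to keratin. Ppl read 11.82, 12.17 and 11.53 in TDECC, against 5.03, 4.45 and 5.31 in TDESM (difference 6.91, SE 0.26, limma adjusted p = 2.11e-06). Evpl read 7.91, 9.27 and 8.16 in TDECC, against 5.8, 5.93 and 5.97 in TDESM (difference 2.55, SE 0.34, limma adjusted p = 0.00101). Neither overlapped between the strains.

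Of the connexins, Gjb2 differed, whereas Gja1 and Gjb1 did not pass the test. Gjb2, a connexin of epithelia and liver, read 9.90, 12.44 and 10.14 in TDECC, against 4.32, 4.48 and 4.24 in TDESM, a difference of 6.48 (SE 0.63, limma adjusted p = 2.31e-04). Its TDECC arrays all stood well above TDESM, replicate 2 by the most. Gja1, the most widespread connexin and the main one of fibroblasts, read 12.81, 12.35 and 12.33 in TDECC and 12.42, 12.43 and 12.53 in TDESM, a difference of 0.04 (SE 0.16, limma adjusted p = 0.886). A dimmer probe set of Gja1 was called lower in TDECC, at -0.62 (limma adjusted p = 0.0179), and the remaining one was not called. Gjb1, the main connexin of hepatocytes, read 5.68, 6.45 and 5.91 in TDECC and 5.67, 5.68 and 5.68 in TDESM, a difference of 0.34 (limma adjusted p = 0.246).

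Of the 8 polarity genes, all but Pard6a were higher in TDECC. In the Par complex, Pard6b, an adaptor that joins Cdc42 to atypical protein kinase C, read 12.12, 11.46 and 12.25 in TDECC, against 5.84, 5.79 and 5.79 in TDESM, a difference of 6.14 (SE 0.21, limma adjusted p = 1.48e-06). Its paralogue Pard6a averaged 6.51 in TDECC and 6.36 in TDESM and did not pass. The scaffold Pard3 and the kinase Prkci were also higher in TDECC. Pard3 averaged 8.69 in TDECC and 7.78 in TDESM (difference 0.91, limma adjusted p = 0.00390), and 2 of its 4 probe sets were called. Prkci averaged 12.10 in TDECC and 10.64 in TDESM (difference 1.46, limma adjusted p = 8.23e-05), with its 2 dimmer probe sets not called and a difference of 0.47 over the mean of all 3.

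In the Crumbs complex, which marks the apical membrane, Crb3 read 9.60, 9.95 and 8.56 in TDECC, against 5.66, 5.59 and 5.87 in TDESM (difference 3.66, SE 0.34). That probe set is of a type that can also bind other transcripts. Of the 3 other Crb3 probe sets, a further set of this type gave 3.74, and the rest gave 4.58 and 5.59, all past the threshold. Patj, a scaffold that binds the Crumbs complex to tight junctions, read 9.37, 9.47 and 9.29 in TDECC, against 6.26, 6.39 and 6.83 in TDESM (difference 2.88, SE 0.17), and 2.93 by its second probe set. Both genes thus had the same direction by every probe set.

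In the Scribble complex, which marks the basolateral membrane, Llgl2 read 11.53, 11.51 and 10.59 in TDECC, against 6.17, 6.03 and 6.53 in TDESM (difference 4.97, SE 0.28, limma adjusted p = 1.52e-05). Scrib itself averaged 9.35 ± 0.29 in TDECC and 8.48 ± 0.14 in TDESM (SD, n = 3 each), a difference of 0.87 (SE 0.17, limma adjusted p = 0.00655). Llgl1, the widely expressed paralogue of Llgl2, averaged 9.05 in TDECC and 8.28 in TDESM (limma adjusted p = 0.0307). The Dlg genes, from the list of further polarity genes, were not uniform. Dlg1, a partner of Scrib, was called lower in TDECC, averaging 9.67 there and 11.21 in TDESM (difference -1.54, limma adjusted p = 3.17e-04). Dlg4 (-1.16) and Dlg5 (-0.58) were also called lower, Dlg3 (1.63) was called higher and Dlg2 was not called.

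Several probe sets were available for 11 of the 38 genes. All probe sets of a gene had the same call for 4 of them, Cldn1, Ocln, Crb3 and Patj, and differed in call for the other 7. Over all 59 probe sets, 36 were called higher in TDECC, against 19.0% of all probe sets, and 3 were called lower, against 17.9% of all probe sets (36.9% in either direction).

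The TDECC arrays were more scattered than the TDESM arrays. The range over 3 arrays exceeded 1 on the log2 scale for 12 of the 38 genes in TDECC and for 0 in TDESM, and for 13.6% in TDECC and 0.225% in TDESM of all genes. The widest ranges were those of Cldn8, Cldn2, Cldn7 and Gjb2. TDECC replicate 2 was the highest TDECC array for 15 of the 21 genes higher by at least 2 (71.4%, its tie with replicate 3 for Cldn3 included), and it was also the highest for 54.0% of all 763 genes higher by that much. The median level of the 6 epithelial markers was 13.87, 13.93 and 13.99 on TDECC replicates 1, 2 and 3. Of the 10 further connexins and pannexins measured, replicate 2 was the highest TDECC array for Gjb6, Gja5 and Panx3. Replicate 1 was the highest for Gja3, Gja4, Gjb5 and Panx1, and replicate 3 for Gja6, Gjc1 and Gjd2. Gjb6 and Gja5 were named after their values were seen. Gjb6, the direct neighbour of Gjb2, read 5.77, 9.76 and 4.19 in TDECC, against 2.88, 3.02 and 2.70 in TDESM, and Gja5 read 4.37, 10.22 and 6.50 in TDECC, against 4.57, 4.68 and 4.42 in TDESM. Neither passed the threshold (limma adjusted p = 0.0583 and 0.193), and a part of that array in these results was not tested beyond leaving it out. Without TDECC replicate 2, 26 of the 28 genes were still called higher, and Cldn8 and Cldn11 were not.

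**Figure D3:**
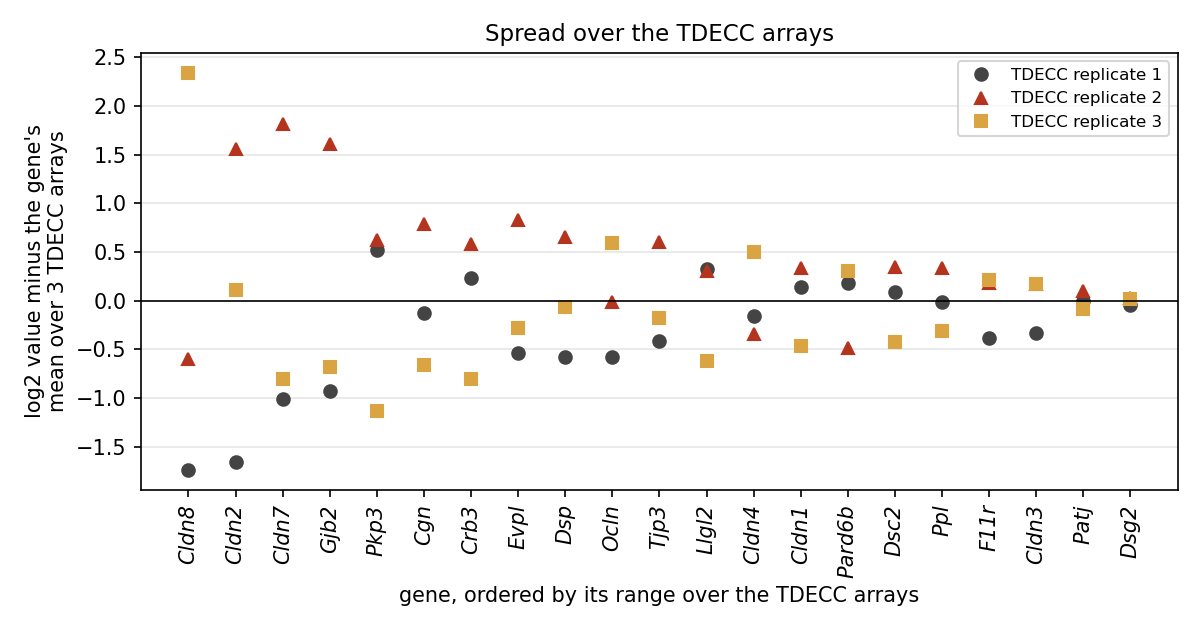
Log2 value of each TDECC array minus the gene's mean over the 3 TDECC arrays, for the 21 genes higher in TDECC by at least 2, ordered by their range. Replicate 2 (triangles) lies highest for 15 of the 21 genes (Cldn3 tied with replicate 3), and the 4 genes at the left, Cldn8, Cldn2, Cldn7 and Gjb2, have the widest ranges.

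Genes of these structures beyond the listed ones were counted in the same way. Among 24 further tight junction genes measured, 9 were higher in TDECC (37.5%), against 20.3% of all genes. A difference of at least 2 in favour of TDECC was reached by 29.2%, against 5.37% of all genes. In the other direction 6 were lower, a count near the share of all genes (21.8%). The median difference was -0.08. Cldn18, a claudin of stomach and lung, read 12.66, 12.99 and 12.71 in TDECC, against 4.99, 5.11 and 5.08 in TDESM (difference 7.73, SE 0.13), and Lsr, a protein of contacts between 3 cells, differed by 5.93. On the other side, Mpdz, the paralogue of Patj, read 4.61, 4.51 and 4.18 in TDECC, against 8.64, 8.50 and 8.40 in TDESM (difference -4.08, SE 0.15), and Marveld1 differed by -2.85. Limma adjusted p for these 4 genes lay between 1.42e-07 and 2.41e-04.

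Of 7 further desmosome genes, 3 were higher (42.9%, against 20.3% of all genes) and 0 lower in TDECC (21.8% of all genes). Perp, a desmosomal membrane protein, differed by 7.62 and Pof1b, an actin-binding junction protein, by 7.40 (limma adjusted p = 5.03e-06 and 4.17e-06). Of 10 further connexins and pannexins, 1 was higher and 1 lower, against the same shares of all genes. Gjc1, a connexin of the heart's conduction system and of smooth muscle, read 4.08, 4.18 and 4.63 in TDECC, against 9.34, 9.44 and 9.37 in TDESM, a difference of -5.09 (SE 0.16, limma adjusted p = 1.09e-06). Gja3, a connexin of the lens, differed by 0.49 (limma adjusted p = 0.0397), a call lost centred on housekeeping genes (0.278), with cyclic loess (0.0577), with the replicate block (0.0985), with both probe sets averaged (0.0994) and without TDECC replicate 1 or any 1 TDESM array (up to 0.142).

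Of 23 further polarity genes, 9 were higher in TDECC (39.1%), against 20.3% of all genes. A difference of at least 2 in favour of TDECC was reached by 17.4%, against 5.37% of all genes. In the other direction 6 were lower, a count near the share of all genes (21.8%). The median difference was -0.07. Epb41l5, which binds Crumbs proteins, differed by 3.96 and Prkcz, the other atypical protein kinase C, by 3.73. Pard6g, the remaining Par6 paralogue, read 4.07, 3.53 and 3.75 in TDECC, against 7.23, 7.23 and 7.49 in TDESM, a difference of -3.53 (SE 0.17, limma adjusted p = 6.72e-06). Mark1, a polarity kinase, differed by -1.79, a call lost under poly-A centring (-0.51, limma adjusted p = 0.120).

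For some pairs of related genes, one was thus higher and the other lower in TDECC. The pairs were chosen for these opposite directions after their values were seen, and the size of one gene was not set against the other. F11r and Jam3, Ocln and Marveld1, Patj and Mpdz, Pard6b and Pard6g, and Gjb2 and Gjc1 each had non-overlapping strains, in opposite directions. Of all genes, 26.4% read higher and 27.3% lower in TDECC without overlap. Centring on the poly-A controls left the lower gene of each pair lower. Other relatives did not split: Llgl1 and Llgl2, and Prkci and Prkcz, were all called higher in TDECC. Pard6a was not called beside Pard6b, nor were Gja1 and Gjb1 beside Gjb2.

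**Figure D4:**
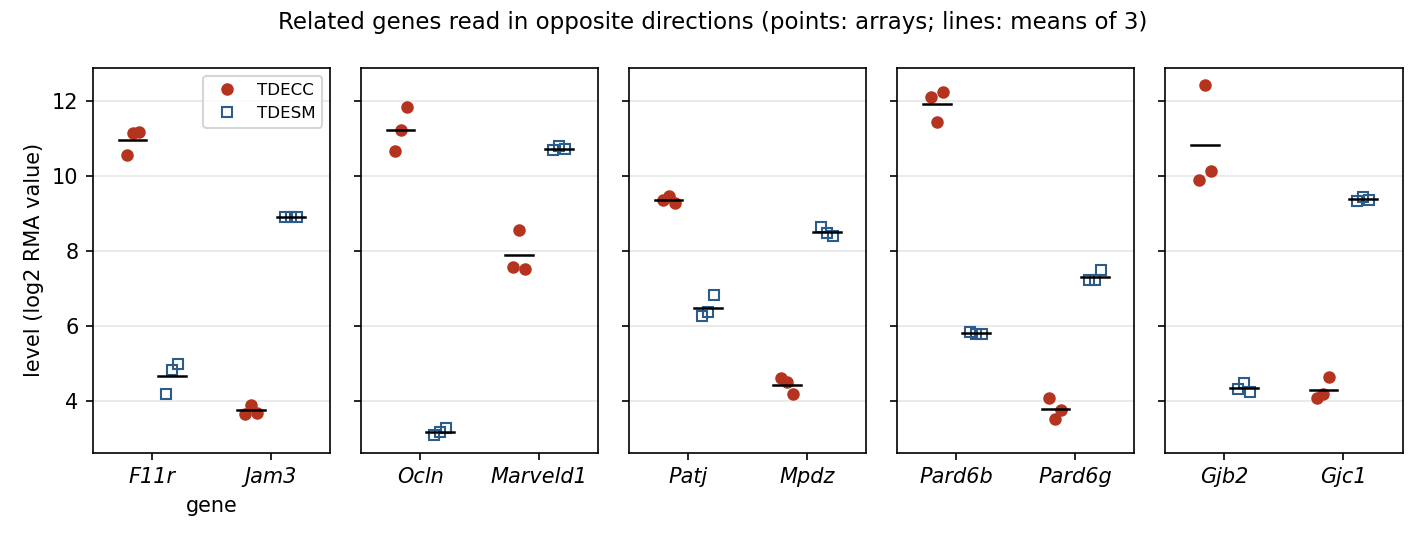
Log2 level on each array (TDECC filled circles, TDESM open squares, lines for the means of 3 arrays) for 5 pairs of related junction and polarity genes. In each panel the left gene reads higher and the right gene lower in TDECC, with no overlap between strains. The pairs were picked for these directions after their values were seen.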

How the data were processed

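Arrays of 6 rat samples, 3 TDECC and 3 TDESM by their titles, were analysed. Per the submitters' processing notes the authors made the values with RMA, and these deposited log2 values were used as they stand. The version of RMA was not stated there. RMA in common use brings arrays to a common distribution, which hides differences in total mRNA. Trizol extraction and biotin-labelled cRNA are given per the labels' protocols. Gene symbols came from the platform annotation (20826 probe sets with 1 symbol, 436 with several, 9780 with none and 57 controls left out), and 99.7% of the entrez identifiers of named probe sets were found in RefSeq GRCr8.

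All 31042 non-control probe sets were fitted in R 4.3.3 with limma 3.58.1 (lmFit and eBayes), TDECC minus TDESM, with no filter, a Benjamini-Hochberg threshold of 0.05 and no block. No raw intensities were used, and precision is limited by having 3 arrays a strain. By rule, values per array are given for called members with a difference of at least 2 and called members against their group, and the 2 largest called differences a direction are named from each list of other genes. Array values of Tjp1, Cldn12, Jam2, Pkp1, Gja1 and Gjb1 were added after they were seen, as were Cldn16, Dsc1, Dsg1, Llgl1, Gjb6 and Gja5. The same holds for Gzmb and the Dlg genes. Members and lists were chosen with earlier results of these data known. On simulated data for this comparison (31042 probe sets, 100 changed by each size) limma recovered 43% of log2 changes of 1 and 88% of changes of 2. The simulation changed far fewer probe sets than the 36.9% called in the real data. It also gave both strains the same spread, while the real TDECC arrays were more scattered. Its rates may therefore not hold for the real comparison. Figures were drawn with matplotlib 3.10.9. Alternatives were cyclic loess, centring on 15 housekeeping genes, 12 ribosomal protein genes or 24 poly-A control probe sets, leaving out the dimmest 33.3% of probe sets, the mean of a gene's probe sets, 1 row per gene, trend and robust eBayes, the replicate block, each array left out, and a minimum difference of 1.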

Additional observations from a re-analysis of the deposited data

How the results depend on the processing

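Of the 29 called genes, 25 kept direction and call under all 15 refits run, and Cldn2, Cldn8, Cldn11 and Tjp1 lost the call under some, as given above. Of the 28 genes higher in TDECC, 25 were still called without the dimmest probe sets, which left 32 members tested and Cldn2, Cldn8 and Cldn11 untested, and 25 with a minimum difference of 1. Leaving out each array in turn gave 25 to 28 genes higher and 1 to 2 lower, and 4519 to 6235 genes called in all. The replicate numbers did not pair the arrays (correlations of deviations -0.04, -0.01 and -0.09), and with the replicate block 28 members were higher, 1 was lower and 5376 genes were called.

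The count of members lower in TDECC was 2 centred on housekeeping genes, with cyclic loess or with the mean of all probe sets, each time through Cldn12, and without TDECC replicate 1 or 2 through Cldn12 and without replicate 3 through Cldn6. Centring on the poly-A controls gave 12299 genes called, 11376 higher (92.5% of calls, against 48.3% as deposited) and 923 lower, and 3 gap junction genes higher. Centring on housekeeping genes moved the median of all genes to -0.14. A minimum difference of 1 left 3606 genes, 1707 higher and 1899 lower.

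Signs turned for genes that had not passed. Centred on the poly-A controls, Cldn5 was 1.19, Cldn6 0.98, Cldn12 0.77 and Pkp1 1.05. Jam2 was -0.12 centred on housekeeping genes, -0.0655 with cyclic loess and -0.30 averaged over probe sets, and Gja1 was -0.10 and -0.22 under the first and last of these. Leaving out 1 array, Jam2 ranged from -0.24 to 0.19, Gja1 from -0.12 to 0.12, Pkp1 from -0.66 to 0.23 and Cldn5 from -0.195 to 0.075. Where the construction of an alternative does not show it, the cause was not tested. The lack of detection calls limits what can be said of genes near background.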
